A study of Mus musculus with 6 samples.

Results

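The CDK inhibitors and D cyclins, 10 genes of the 24493 in the deposited table, were described in mouse pancreatic tumour cells with and without hairpins against Pthlh. Members were chosen by name: the INK4 inhibitors Cdkn2a, Cdkn2b, Cdkn2c and Cdkn2d, the CIP/KIP inhibitors Cdkn1a, Cdkn1b and Cdkn1c, and the D cyclins Ccnd1, Ccnd2 and Ccnd3. Of these, 9 had at least 1 TPM (a transcript level corrected for transcript length and scaled to the same total in every library) in at least 2 libraries and were tested, and Cdkn1c did not. The cells are KPCY cells, tumour cells of a C57BL/6 mouse pancreatic cancer model that carry a fluorescent lineage mark. RNA was sequenced from 6 libraries, 2 for each of 3 short hairpin RNAs. The first group carried a non-targeting hairpin (shNT), the second Pthlh hairpin 1 and the third Pthlh hairpin 2, so every group carried a transduced hairpin and none was untransduced. Pthlh encodes parathyroid hormone-related protein, and the series compared cells with and without its knockdown. The labels give the cells as sorted from tumours in mice, whereas the protocols describe culture in DMEM and transduction, and the sources used here do not say from which of these the RNA was taken. The series design names 2 parental clones that no label ties to a library. No label says whether replicates are separate cultures or animals. All p-values therefore describe the spread between libraries, and that spread may be technical.

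D cyclins bind the kinases Cdk4 and Cdk6 and start the phosphorylation of the retinoblastoma protein Rb1, which frees E2F factors to switch on genes of DNA synthesis. INK4 inhibitors bind Cdk4 and Cdk6 and keep D cyclins from activating them, while CIP/KIP inhibitors block cyclin E and cyclin A complexes with Cdk2 and also help assemble D cyclin complexes. Cdkn2a makes both p16 and, from an upstream promoter and another reading frame, the p53 activator Arf, and it is often deleted in pancreatic cancer together with its neighbours Cdkn2b and Mtap.

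Before these genes are described, the libraries are given in brief. The level of Pthlh was 0.752 and 0.966 TPM with shNT, 0 and 0.106 TPM under hairpin 1 and 0.0422 and 0.263 TPM under hairpin 2, so all 4 hairpin libraries lay below both controls. It fell below the expression filter, and in a limma fit without the filter its adjusted p was 0.00837 with hairpin 1 and 0.0583 with hairpin 2. Of 6 epithelial markers 5 had at least 1 TPM in every library, with a summed level of 3755 to 4447 TPM, while Epcam was at 0.127 to 0.605 TPM. The 6 leukocyte markers summed to 1.29 to 2.66 TPM, nearly all of it Cd68, and the 6 fibroblast markers to 0.286 to 0.511 TPM, with no fibroblast, endothelial, acinar or islet marker reaching 1 TPM. In bulk RNA, fewer cells of a type and less RNA per cell cannot be told apart. The small-RNA entry Mir6236 held 34.1% and 24.3% of the TPM total of the control libraries and 19.7% to 23.4% of that of the hairpin libraries, and its part in the levels of other genes was tested only by the alternative that leaves small-RNA entries out. The median difference from shNT over all 11549 tested genes was 0.11 (log2) with hairpin 1, 0.09 with hairpin 2 and 0.10 with both hairpins, and after median-ratio scaling it was 0.02, 0.00 and 0.01. Without small-RNA entries the same medians were -0.06, -0.03 and -0.04.

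In control cells Ccnd1 was the most abundant of the 10 genes, and Cdkn2a was the most abundant inhibitor gene, its Arf and p16 transcripts counted together. The shNT means of Ccnd1 and Cdkn2a were 419 ± 21.1 TPM and 150 ± 17.2 TPM (SD, n = 2 here and below). The order then ran Ccnd3 (69.0 ± 0.918 TPM), Ccnd2 (57.3 ± 2.66 TPM), Cdkn1b (42.3 ± 1.17 TPM), Cdkn2c (40.7 ± 1.74 TPM), Cdkn2b (28.7 ± 1.02 TPM), Cdkn2d (18.6 ± 5.30 TPM) and Cdkn1a (18.0 ± 0.0518 TPM). The libraries of neighbours in this order overlapped for Cdkn1b and Cdkn2c and for Cdkn2d and Cdkn1a, and for no other pair of neighbours. Cdkn1c, the imprinted inhibitor p57, was listed at 0 in both shNT libraries and reached at most 0.0303 TPM elsewhere. With hairpin 1 the order changed: Cdkn2a moved from rank 2 to rank 6 and Cdkn2b from rank 7 to rank 9, while Ccnd2 rose from rank 4 to rank 2. With hairpin 2 the first 4 ranks were held by the genes that held them in control cells.

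**Figure D1:**
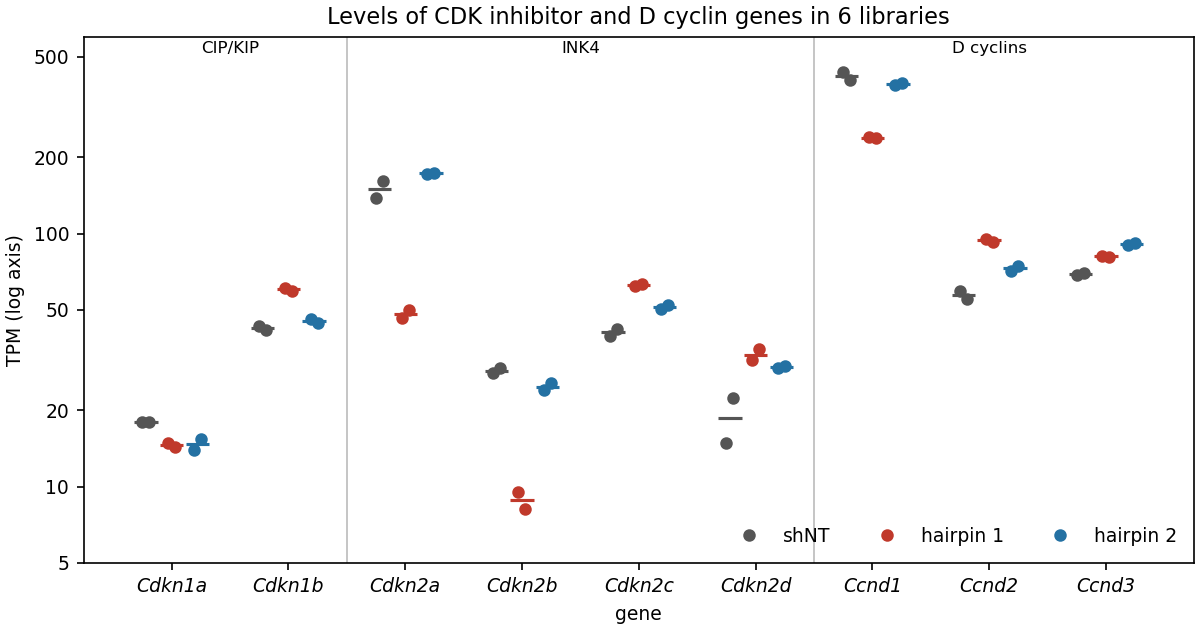
Level of the 9 tested CDK inhibitors and D cyclins (horizontal axis) in every library (vertical axis, TPM on a log scale), with 1 point per library, a bar at each group mean and colours for shNT, hairpin 1 and hairpin 2. The hairpin 1 points of Cdkn2a (46.2 and 49.9 TPM) and Cdkn2b (9.51 and 8.18 TPM) sit far below those of the other groups.

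With hairpin 1 all 9 tested members passed the test: Cdkn1b, Cdkn2c, Cdkn2d, Ccnd2 and Ccnd3 rose, and Cdkn1a, Cdkn2a, Cdkn2b and Ccnd1 fell (limma, adjusted p under 0.05). This comparison called 50.2% of all tested genes, 32.1% higher and 18.1% lower, so a call by itself says little here and sizes are read against all genes. The median absolute difference was 0.71 (log2) over the members and 0.26 over all tested genes. With hairpin 2, 3 members rose (Cdkn2c, Ccnd2 and Ccnd3) and 0 fell by the limma adjusted p, while at an unadjusted p under 0.05 4 were higher and 2 lower. There the background was 9.63% of all genes, 6.62% higher and the others lower (347 genes), and the median absolute difference was 0.28 over the members and 0.14 over all genes. Those 3 genes rose with each hairpin, a result that 7.07% of all genes gave in either direction. The 2 comparisons share the shNT libraries. The members were chosen with earlier results of these data known, so their sizes beside those of all genes are a description only.

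Taking both hairpins together against shNT, 5 members rose and 4 fell, the same genes in the same directions as with hairpin 1, against a background of 39.4% (27.3% higher, 12.1% lower). Without small-RNA entries 2 of these calls were lost, Cdkn1b (limma adjusted p = 0.277) and Ccnd3 (0.154), and Cdkn1b was also lost after chromosome centring (0.0739). The comparison of both hairpins averages the 2 group means, so a change with hairpin 1 alone can carry a call. Cdkn2a passed as a fall (-0.70) although its difference with hairpin 2 was 0.21. No member passed with both hairpins pooled as 1 group of 4. Between the hairpins, 7 of the 9 differed, 4 higher and 3 lower with hairpin 2 than with hairpin 1, against 40.1% of all genes (19.9% higher, 20.2% lower). The libraries of hairpin 1 and shNT did not overlap for 9 of 9 members (76.8% of all genes), nor did those of hairpin 2 and shNT for 9 of 9 (61.8%). Between the hairpins they did not overlap for 8 of 9 (77.0%), the exception being Cdkn1a. The 4 hairpin libraries lay apart from both shNT libraries for 8 of 9 (40.7%), the exception being Cdkn2a. The split of called genes between higher and lower moved with scaling: with hairpin 1, 63.8% of called genes were higher as deposited, 50.8% after median-ratio scaling and 37.7% without small-RNA entries. With hairpin 2 these shares were 68.8%, 29.9% and 28.3%, and with both hairpins 69.2%, 46.5% and 33.1%. No called member changed direction under these scalings.

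**Figure D2:**
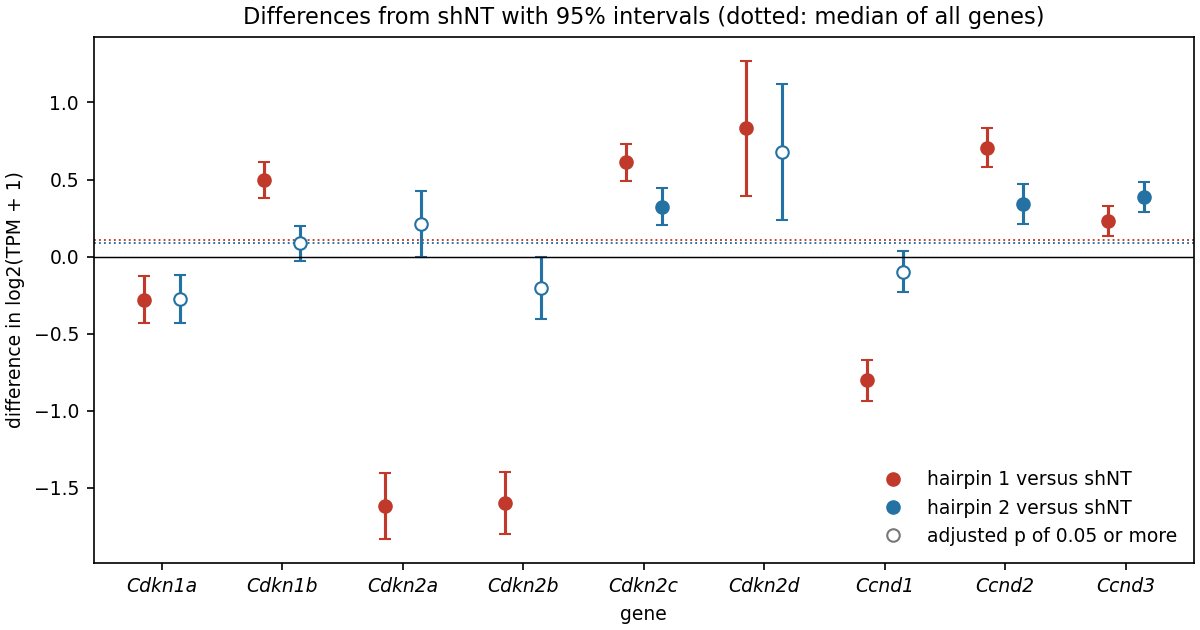
Difference from shNT (vertical axis, log2(TPM + 1) scale) of each tested member (horizontal axis) for hairpin 1 and hairpin 2, with 95% intervals, open points for an adjusted p of 0.05 or more and dotted lines at the median of all genes. Cdkn2a and Cdkn2b lie at -1.62 and -1.60 with hairpin 1 and at 0.21 and -0.20 with hairpin 2, while Cdkn2c, Cdkn2d, Ccnd2 and Ccnd3 lie above 0 with both.

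The largest changes were in the 2 inhibitor genes of one locus. Cdkn2a (chromosome 4, 89274471 to 89294653, minus strand, mm10) and Cdkn2b (chromosome 4, 89306299 to 89311039, minus strand), which makes the Cdk4 and Cdk6 inhibitor p15, start 16.4 kb apart. The RefSeq promoter table (GRCm38.p6) held 11 windows for 7 of the 10 members. Those of these neighbours are shown because both genes fell together with hairpin 1. Each is the 250 bases before a start site, on the minus strand, and capitals mark the E2F site TTTCCCGC, the GC box GGGCGG and the cAMP response element (CRE) TGACGTCA.
Cdkn2a, upstream (Arf) start, chr4:89294620-89294869: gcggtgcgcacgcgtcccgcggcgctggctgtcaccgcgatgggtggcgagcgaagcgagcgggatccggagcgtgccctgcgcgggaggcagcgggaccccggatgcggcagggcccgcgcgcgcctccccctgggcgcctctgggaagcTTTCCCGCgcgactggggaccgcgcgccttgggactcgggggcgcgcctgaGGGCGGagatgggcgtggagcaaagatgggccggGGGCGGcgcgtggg
Cdkn2a, downstream (p16) start, chr4:89282193-89282442: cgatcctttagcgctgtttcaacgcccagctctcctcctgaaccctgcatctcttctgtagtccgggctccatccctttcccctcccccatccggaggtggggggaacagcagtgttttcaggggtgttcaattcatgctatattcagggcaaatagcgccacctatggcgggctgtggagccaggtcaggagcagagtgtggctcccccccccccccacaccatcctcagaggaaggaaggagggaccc
Cdkn2b, chr4:89311033-89311282: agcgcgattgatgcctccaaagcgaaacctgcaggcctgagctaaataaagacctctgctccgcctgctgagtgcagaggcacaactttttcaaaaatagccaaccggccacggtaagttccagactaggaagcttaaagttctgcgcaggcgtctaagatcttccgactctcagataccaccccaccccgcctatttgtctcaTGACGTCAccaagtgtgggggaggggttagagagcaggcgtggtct

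The 3 windows shared none of the motifs searched. The Arf window had an E2F site 99 bases and GC boxes 48 and 14 bases before the start, the p16 window had none of the 3 motifs, and the Cdkn2b window had a CRE 46 bases before the start. Among 32851 RefSeq windows of the same length, 0.895% held the E2F site, 32.7% the GC box and 1.55% the CRE, on either strand. The other motifs searched were the AP-1 site TGANTCA (6.75% of windows), the TEAD site GGAATG (12.6%), the E-box CACGTG (6.02%), the SMAD site GTCTAGAC (0.167%), the NF-Y site CCAAT (33.8%) and the p53 half-site (7.13%), and none of them was in these 3 windows. In the windows of the other members, p53 half-sites lay 73 and 51 bases before one start of Cdkn1a and 102 bases before the start of Cdkn2d. A match is a description of letters, and binding was not measured.

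Cdkn2a stood at 138 and 162 TPM in control libraries, at 46.2 and 49.9 TPM under hairpin 1, and at 172 and 174 TPM under hairpin 2. Both hairpin 1 libraries were low and both hairpin 2 libraries were above the controls, with no overlap between groups. The fall with hairpin 1 was 3.12-fold, or -1.62 ± 0.09 (SE) on the log2(TPM + 1) scale (limma adjusted p = 0.000184), and 1.51% of tested genes changed more. With hairpin 2 the difference was 0.21 ± 0.09 (adjusted p = 0.159; 0.0158 without the second shNT library). The row sums the Arf and p16 transcripts, so the level of each is not known from it.

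Cdkn2b stood at 28.04 and 29.5 TPM in control libraries, at 9.51 and 8.18 TPM under hairpin 1, and at 24.0 and 25.7 TPM under hairpin 2. The hairpin 1 libraries were again far below the rest, and the hairpin 2 libraries lay slightly below the controls. The fall with hairpin 1 was 3.25-fold, or -1.60 ± 0.08 (limma adjusted p = 0.000156), and with hairpin 2 the difference was -0.20 ± 0.08 (adjusted p = 0.151). The ratio of Cdkn2a to Cdkn2b was 5.21 ± 0.414 in shNT cells and 5.48 ± 0.878 with hairpin 1, so both genes fell by similar factors, and it was 6.97 ± 0.276 with hairpin 2. Both calls with hairpin 1 held in all 17 alternatives.

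Of the genes around this locus, Mtap and Klhl9 did not pass the test with either hairpin in the values as deposited. Mtap, a methionine salvage enzyme that starts 158 kb from Cdkn2a, stood at 117 and 118 TPM in control libraries, at 118 and 111 TPM under hairpin 1, and at 121 and 122 TPM under hairpin 2. Hairpin 1 differed from shNT by -0.04 ± 0.05 at Mtap (limma adjusted p = 0.528), and hairpin 2 by 0.05 ± 0.05 (adjusted p = 0.514). The 2 other tested genes with a start within 1 Mb were the ubiquitin ligase adaptor Klhl9, with differences of 0.08 and 0.09, and the predicted gene Gm12602, which fell with hairpin 1 (-0.39, adjusted p = 0.0335). Of the 6 neighbours listed for this region, Dmrta1, Hacd4 and Elavl2 lay below the filter. The transcription elongation factor gene Mllt3 rose with hairpin 1, from 4.76 ± 0.425 to 8.19 ± 0.118 TPM (0.68 ± 0.08, adjusted p = 0.00171), and Focad also rose (0.27 ± 0.07, adjusted p = 0.0203). After median-ratio scaling, quantile normalization or chromosome centring, or without small-RNA entries, 1 listed neighbour rose with hairpin 1. After chromosome centring 1 listed neighbour also fell with hairpin 1, and of those tested only Mtap was below 0 as deposited. The median over the 687 tested genes of chromosome 4 was 0.17 with hairpin 1, on the other side of 0 from Cdkn2a and Cdkn2b.

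**Figure D3:**
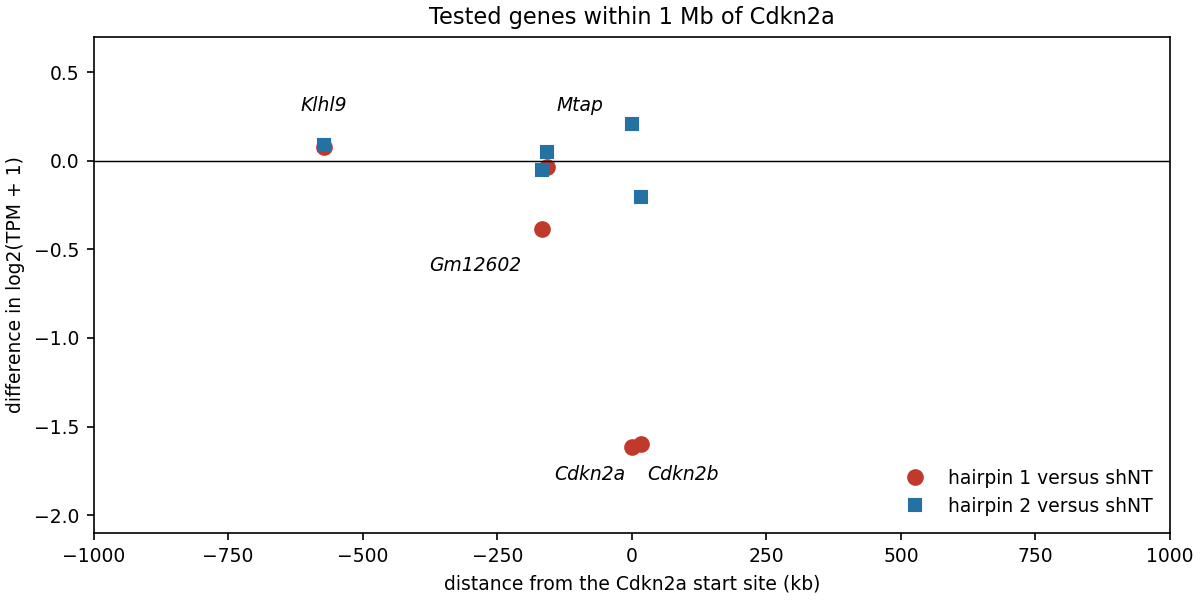
Difference from shNT (vertical axis, log2(TPM + 1) scale) of the tested genes around Cdkn2a against the distance of their start from that of Cdkn2a (horizontal axis, kb), for hairpin 1 and hairpin 2. With hairpin 1 Cdkn2a (-1.62) and Cdkn2b (-1.60) lie far below Mtap (-0.04) and Klhl9 (0.08).

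The other INK4 genes moved the opposite way. Cdkn2c (chromosome 4, 109660876 to 109667189, minus strand), which makes p18, stood at 39.5 and 42.0 TPM in control libraries, at 62.2 and 63.2 TPM under hairpin 1, and at 50.2 and 52.3 TPM under hairpin 2. All 4 hairpin libraries were above the controls, those of hairpin 1 the highest. It rose 1.54-fold with hairpin 1 (0.61 ± 0.05, limma adjusted p = 0.00055) and 1.26-fold with hairpin 2 (0.32 ± 0.05, adjusted p = 0.0253). The hairpin 2 call was lost on leaving out either hairpin 1 library (0.0750 and 0.0752), the first or second hairpin 2 library (0.152 and 0.160), or small-RNA entries (0.253), among others.

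Cdkn2d (chromosome 9, 21288410 to 21291407, minus strand), which makes p19Ink4d, stood at 14.9 and 22.4 TPM in control libraries, at 31.7 and 34.9 TPM under hairpin 1, and at 29.6 and 30.1 TPM under hairpin 2. The hairpin libraries did not overlap with the controls, which were themselves far apart. It rose with hairpin 1 (0.83 ± 0.18, limma adjusted p = 0.0118), a call lost without the second hairpin 1 library (0.0680). With hairpin 2 the difference was 0.68 ± 0.18 (adjusted p = 0.0672), and without the first or the second shNT library it was 0.40 (0.0376) and 0.96 (0.00207). Leaving out the same libraries gave 0.55 and 1.11 for hairpin 1, and 0.48 and 1.03 for both hairpins. It passed for both hairpins together at 0.76 ± 0.15 (adjusted p = 0.0148; 0.0501 without the second hairpin 1 library). The 55 tested genes with a start within 1 Mb had a median difference of -0.13 with hairpin 1, and the 643 of chromosome 9 one of -0.14.

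Among the CIP/KIP genes, Cdkn1b rose with hairpin 1 and Cdkn1a was lower with both hairpins. Cdkn1b (chromosome 6, 134920401 to 134925513, plus strand), which makes p27, stood at 43.2 and 41.5 TPM in control libraries, at 61.0 and 59.3 TPM under hairpin 1, and at 45.8 and 44.2 TPM under hairpin 2. The hairpin 1 libraries stood apart, and those of hairpin 2 were just above the controls. Its rise with hairpin 1 was 1.42-fold (0.50 ± 0.05, limma adjusted p = 0.000794). With hairpin 2 the difference was 0.09 ± 0.05 (adjusted p = 0.246), equal to the median of all genes, and it was -0.01 after median-ratio scaling.

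Cdkn1a (chromosome 17, 29090976 to 29100727, plus strand), which makes the p53 target p21, stood at 17.9 and 18.0 TPM in control libraries, at 14.9 and 14.4 TPM under hairpin 1, and at 13.9 and 15.4 TPM under hairpin 2. The hairpin libraries overlapped with each other and all lay below the controls. It fell with hairpin 1 (-0.28 ± 0.06, limma adjusted p = 0.0139; 0.0514 and 0.0793 without the first or second hairpin 1 library) and for both hairpins together (-0.28 ± 0.05, adjusted p = 0.0130). With hairpin 2 the difference was also -0.28 ± 0.06, with an adjusted p of 0.0514 as deposited and 0.0284 after median-ratio scaling. Among all tested genes, 47.2% changed more than Cdkn1a with hairpin 1 and 20.4% with hairpin 2. The median of the 596 tested genes of its chromosome was 0.20 with hairpin 1.

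The D cyclins split: Ccnd1 fell with hairpin 1, while Ccnd2 and Ccnd3 rose with both hairpins. Ccnd1 (chromosome 7, 144929931 to 144939925, minus strand), a cyclin often induced by growth factor and beta-catenin signals, stood at 434 and 404 TPM in control libraries, at 240.0 and 239.5 TPM under hairpin 1, and at 388 and 394 TPM under hairpin 2. The hairpin 1 libraries were low and agreed closely, and the hairpin 2 libraries lay just under the controls. The fall with hairpin 1 was 1.75-fold (-0.80 ± 0.05, limma adjusted p = 0.000327). With hairpin 2 the difference was -0.10 ± 0.05 (adjusted p = 0.258; 0.0332 without the second shNT library).

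Ccnd2 (chromosome 6, 127125162 to 127152193, minus strand) stood at 59.2 and 55.4 TPM in control libraries, at 95.3 and 92.8 TPM under hairpin 1, and at 71.3 and 74.4 TPM under hairpin 2. Both hairpin groups were above the controls without overlap, hairpin 1 the more so. It rose 1.64-fold with hairpin 1 (0.71 ± 0.05, limma adjusted p = 0.000427) and 1.27-fold with hairpin 2 (0.34 ± 0.05, adjusted p = 0.0253). The hairpin 2 call was lost without either hairpin 1 library (0.0750 and 0.0752), without the first or second hairpin 2 library (0.152 and 0.159) and after median-ratio scaling (0.0559), among others.

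Ccnd3 (chromosome 17, 47505051 to 47599691, plus strand) stood at 68.4 and 69.7 TPM in control libraries, at 81.4 and 81.1 TPM under hairpin 1, and at 89.8 and 91.5 TPM under hairpin 2. Of the 5 members that rose with hairpin 1, it was the only one that was higher still with hairpin 2, and no groups overlapped. The rise under hairpin 1 was 0.23 ± 0.04 (limma adjusted p = 0.00547), and that under hairpin 2 was 0.39 ± 0.04 (adjusted p = 0.0128). The hairpin 1 call was lost without small-RNA entries (0.06, adjusted p = 0.642) and after centring each chromosome on its own median (0.03, adjusted p = 0.618), chromosome 17 having a median of 0.20. The hairpin 2 call was lost without either hairpin 1 library (0.0533 and 0.0536) without the first or second hairpin 2 library (0.131 and 0.125), without small-RNA entries (0.26, adjusted p = 0.136) and with only the compared groups in the fit (0.0508).

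Some of these genes overlap others by their spans, and overlap of their exons was not examined. Whether counting used strand is not given in the sources used here, so whether reads of one were counted for another is not known. Ccnd3 overlaps the ribosome biogenesis gene Bysl, at 25.1 to 32.7 TPM, and Ccnd1 overlaps Oraov1, at 6.45 to 8.74 TPM. Ccnd2 overlaps the antisense gene 9330179D12Rik, at 0.366 to 1.23 TPM. Oraov1 was higher in both hairpin 1 libraries than in the controls, opposite to Ccnd1.

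Shares within a family do not depend on how a library is scaled, and no test was run on them. Ccnd1 made up 76.8 ± 0.65% of D cyclin TPM in shNT cells, 57.8 ± 0.25% with hairpin 1 and 70.5 ± 0.19% with hairpin 2. Ccnd2 made up 10.5 ± 0.05%, 22.7 ± 0.31% and 13.1 ± 0.21%, and Ccnd3 12.7 ± 0.70%, 19.6 ± 0.06% and 16.3 ± 0.01%. The ratio of Ccnd1 to Ccnd2 thus went from 7.31 ± 0.0283 in shNT cells to 2.55 ± 0.0454 with hairpin 1 and 5.37 ± 0.0995 with hairpin 2. The summed D cyclin level was 545 ± 22.8 TPM, 415 ± 2.35 TPM and 555 ± 7.69 TPM in the values as deposited.

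In the INK4 family, the Cdkn2a row was the largest in shNT and hairpin 2 cells and the Cdkn2c row in hairpin 1 cells. The Cdkn2a row sums p16 with the p53 activator Arf, so its shares and the INK4 sums hold an unknown amount of Arf. Cdkn2a took 63.0 ± 0.55% of INK4 TPM in shNT cells, 31.4 ± 0.77% with hairpin 1 and 62.03 ± 0.46% with hairpin 2. Cdkn2c took 17.2 ± 1.09%, 41.0 ± 0.79% and 18.4 ± 0.22%, and Cdkn2d 7.74 ± 1.40%, 21.8 ± 0.81% and 10.7 ± 0.04%. The share of Cdkn2b went from 12.1 ± 0.86% to 5.80 ± 0.79% and 8.91 ± 0.29%. The INK4 sum was 238 ± 25.3 TPM in shNT cells, 153 ± 4.64 TPM with hairpin 1 and 279 ± 4.56 TPM with hairpin 2. Within the CIP/KIP family, Cdkn1b held the larger share throughout: 70.2 ± 0.64% in shNT cells, 80.4 ± 0.12% with hairpin 1 and 75.4 ± 1.75% with hairpin 2.

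**Figure D4:**
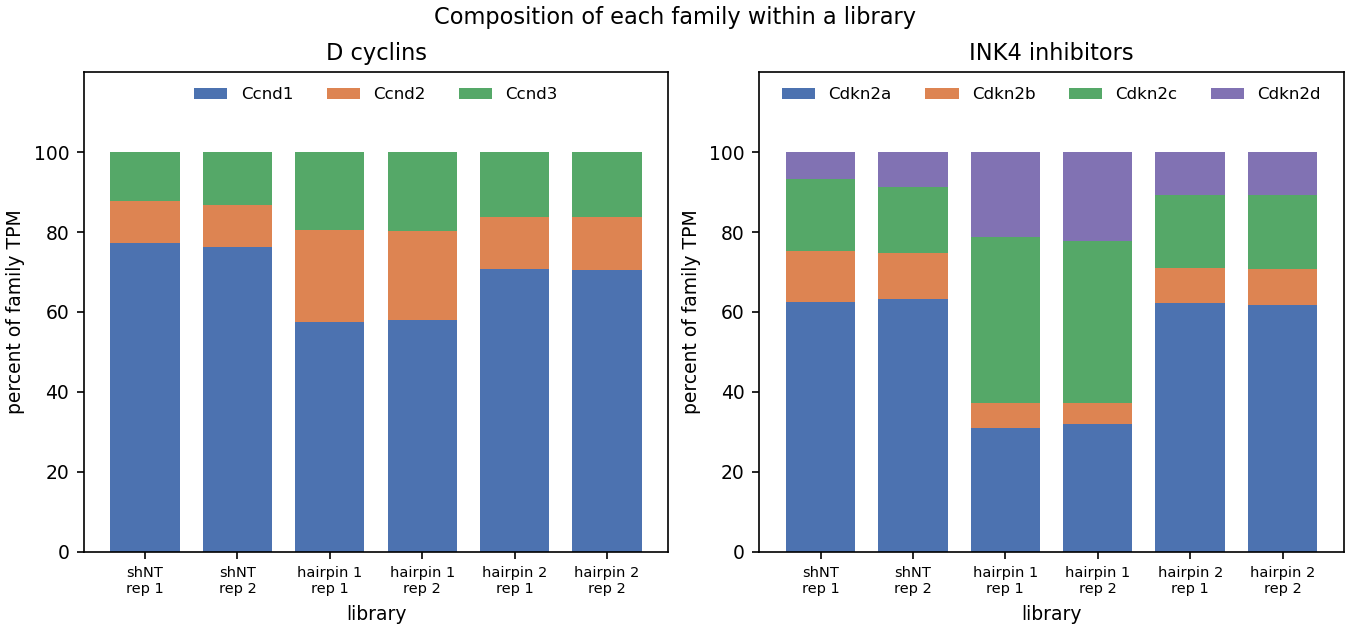
Share of each gene in the summed TPM of its family (vertical axis, percent) as stacked bars, 1 per library (horizontal axis), for the D cyclins and the INK4 inhibitors. Cdkn2c is the largest INK4 part in both hairpin 1 libraries (41.6% and 40.5%), where Cdkn2a holds 30.9% and 31.97%. The Cdkn2a part counts the Arf and p16 transcripts together.

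The hairpins were compared with each other, since both target Pthlh. The difference between them (hairpin 2 minus hairpin 1) was largest for Cdkn2a at 1.83 ± 0.09 (limma adjusted p = 0.000173), with 0.857% of tested genes differing more, then Cdkn2b at 1.40 ± 0.08 (0.000299) and Ccnd1 at 0.70 ± 0.05 (0.000643). Levels were lower with hairpin 2 for Cdkn1b, Ccnd2 and Cdkn2c, and higher for Ccnd3. Cdkn1a and Cdkn2d did not pass: the difference was 0.00 for Cdkn1a (95% interval -0.15 to 0.16) and -0.15 for Cdkn2d (-0.59 to 0.29). Pthlh itself differed by 0.13 between the hairpins (-0.18 to 0.44, limma adjusted p = 0.533 in the fit without the filter). It lay below 1 TPM in every library, where log2(TPM + 1) understates changes, so equal knockdown cannot be read from this value.

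The rest of the pathway was counted over 5 gene lists. Beside them, 32.1% of all tested genes rose and 18.1% fell with hairpin 1 in the values as deposited. With hairpin 2, 9.63% of all tested genes passed and 6.62% rose, and with both 27.3% rose and 12.1% fell. No list was tested against these shares, and a count near them says little about a list. Among 10 CDKs, partner cyclins and activators, 3 rose and 1 fell with hairpin 1, 2 rose with hairpin 2, and 4 rose and 1 fell with both together. After median-ratio scaling 2 rose and 2 fell with both, and without small-RNA entries 0 rose and 2 fell. The 2 hairpin 2 calls (Cdk2 and Ccne1) went to 0 under median-ratio scaling, quantile normalization, chromosome centring and without small-RNA entries. Cdk2, the partner of cyclins E and A, rose with each hairpin in the values as deposited, from 27.6 ± 0.749 to 35.7 ± 1.92 and 33.6 ± 0.0245 TPM (limma adjusted p = 0.00361 and 0.0391). Cdk4, the partner of D cyclins, was at 328 ± 6.46, 346 ± 8.13 and 379 ± 10.03 TPM and passed only for both hairpins together (0.14 ± 0.04, adjusted p = 0.0488). Ccna2 (cyclin A) and Ccnh (a subunit of the CDK-activating kinase) rose with hairpin 1 by 0.32 and 0.53 and had differences of 0.08 and 0.24 with hairpin 2. The phosphatase Cdc25a fell with hairpin 1 (-0.16), and Mnat1, the assembly factor of that kinase, had differences of 0.16 and 0.18 that did not pass.

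Of 13 pocket proteins and E2F factors, 5 rose and 1 fell with hairpin 1, 2 rose and 1 fell with hairpin 2, and 5 rose and 1 fell with both, or 2 and 1 without small-RNA entries. Those that rose with hairpin 2 were Rb1 and E2f8 as deposited, 1 gene of the list after median-ratio scaling, and 0 without small-RNA entries. Rb1, the target of D cyclin kinases, went from 5.48 ± 0.0579 TPM in shNT cells to 14.8 ± 0.485 TPM with hairpin 1 and 7.32 ± 0.265 TPM with hairpin 2. The rise under hairpin 1 was 1.28 ± 0.06 (limma adjusted p = 0.000121), and that under hairpin 2 was 0.36 ± 0.06 (0.0279). Its relative Rbl2 (p130) rose with hairpin 1 by 0.76 and had a difference of 0.04 with hairpin 2. The factor E2f2 rose by 0.87 with hairpin 1, against 0.35 with hairpin 2 (adjusted p = 0.0544), and E2f8, a repressor of the family, rose with both (0.30 and 0.27). E2f6 rose with hairpin 1 (0.25), and Tfdp2, a dimer partner of E2F factors, fell with both (-0.35 and -0.35). After chromosome centring 0 genes of the list fell with hairpin 2.

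Among 13 genes of D cyclin and CIP/KIP turnover, 3 rose and 3 fell with hairpin 1, 1 rose with hairpin 2, and 3 rose and 2 fell with both, or 2 and 3 after median-ratio scaling and 0 and 2 without small-RNA entries. With hairpin 1 alone, 0 rose and 4 fell without small-RNA entries, and with hairpin 2 alone 0 rose under each of the 4 other scalings. Cdc34, a ubiquitin-conjugating enzyme, rose with each in the values as deposited (0.35 and 0.37). Skp2, the ligase subunit that targets p27, rose with hairpin 1 from 21.3 ± 1.21 to 26.1 ± 0.489 TPM (limma adjusted p = 0.0112) and stood at 25.3 ± 0.986 TPM with hairpin 2 (adjusted p = 0.0612). Cul4a rose with hairpin 1 (0.24) and its partner Ddb1 fell (-0.48). Gsk3b, a kinase that marks cyclin D1 for export and decay, fell with hairpin 1 (-0.39) and had a difference of 0.01 with hairpin 2. The scaffold Cul1 did not pass (0.11 and 0.09).

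Of 20 regulators known to act on transcription of the members, 19 were tested. With hairpin 1, 4 rose and 7 fell; with hairpin 2, 0 rose and 2 fell by the limma adjusted p (3 higher and 3 lower at an unadjusted p under 0.05); with both, 3 rose and 4 fell, or 2 and 7 after median-ratio scaling and 0 and 7 without small-RNA entries. Ets1, an activator of p16 transcription, fell from 26.6 ± 1.03 to 11.2 ± 0.434 TPM with hairpin 1 (-1.18 ± 0.05, limma adjusted p = 0.000122) and stood at 26.2 ± 0.46 TPM with hairpin 2 (-0.02 ± 0.05, adjusted p = 0.844). Smad3, which carries TGF-beta signals to Cdkn2b and Cdkn1a, fell with each hairpin (-0.56 and -0.39), as did Ctnnb1, the beta-catenin gene (-0.29 and -0.32). These were the 2 falls of the list with hairpin 2 as deposited, and after chromosome centring 1 gene of the list fell with it. Klf4, an activator of Cdkn1a, rose with hairpin 1 (0.67) and had a difference of 0.12 with hairpin 2. Foxo4, of a family that activates Cdkn1b, and the Polycomb subunit Suz12 rose with hairpin 1 (0.55 and 0.25) and had differences of 0.21 and 0.14 with hairpin 2. Without small-RNA entries 2 genes of the list rose with hairpin 1, against 4 as deposited.

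Of 22 genes that E2F factors drive at the onset of DNA synthesis, 12 rose and 1 fell with hairpin 1, 5 rose and 0 fell with hairpin 2 (13 higher and 0 lower at an unadjusted p under 0.05), and 13 rose and 0 fell with both by limma (13 and 1 unadjusted). Their median difference was 0.19 with hairpin 1, 0.16 with hairpin 2 and 0.18 with both, beside 0.11, 0.09 and 0.10 over all tested genes. These counts moved with scaling. With both hairpins, 6 rose and 2 fell after median-ratio scaling or quantile normalization, and 7 rose and 1 fell after chromosome centring. Without small-RNA entries, 2 rose and 2 fell with both hairpins. With hairpin 1, 9 rose and 1 fell after median-ratio scaling or quantile normalization, and 11 rose and 2 fell after chromosome centring. Without small-RNA entries, 2 rose and 1 fell with hairpin 1. With hairpin 2, 2 rose after median-ratio scaling or chromosome centring, and 0 after quantile normalization or without small-RNA entries. In the values as deposited, the helicase subunit Mcm7 rose with each hairpin, from 165 ± 1.5 to 235 ± 4.34 and 202 ± 2.42 TPM (limma adjusted p = 0.000599 and 0.0238), and the ribonucleotide reductase subunit Rrm2 from 163 ± 0.0520 to 213 ± 5.77 and 215 ± 2.62 TPM (0.0016 and 0.0152). Cdc6, which loads that helicase, and Mcm2 also rose with each (0.42 and 0.27, then 0.36 and 0.20), while Mcm5 and Cdt1 rose with hairpin 1 (0.46 and 0.43) and had differences of 0.16 and 0.15 with hairpin 2. The gene of the list that fell with hairpin 1 was Mcm4 (-0.23, limma adjusted p = 0.00629), and Mcm6 did not pass with it (0.11).

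**Figure D5:**
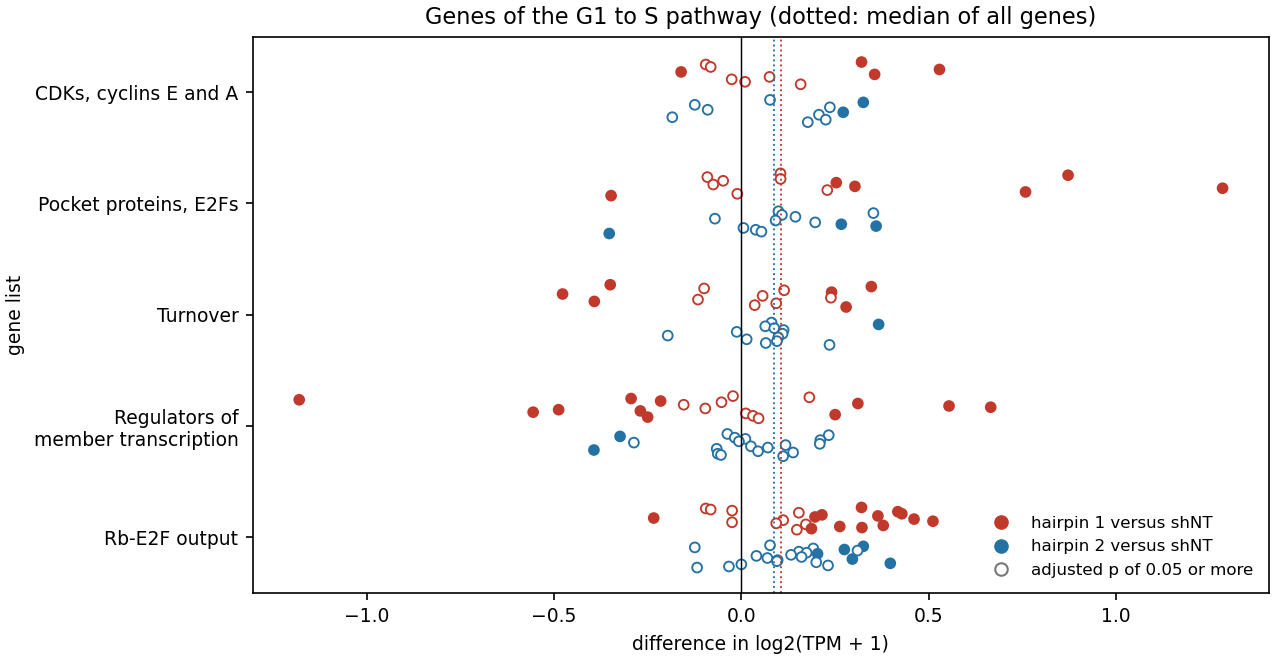
Difference from shNT (horizontal axis, log2(TPM + 1) scale) of each tested gene of the 5 pathway lists, with 1 point per gene and hairpin, open points for an adjusted p of 0.05 or more and dotted lines at the median of all genes. Rb1 is highest among pocket proteins with hairpin 1 (1.28), and Ets1 is lowest among the regulators (-1.18).

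The genes whose profiles over the 6 libraries were most like those of the 3 members with the widest range were found among 8332 candidates with a mean of at least 5 TPM. Likeness was the root mean square difference of log2(TPM + 1) profiles, each centred on its own mean. For Cdkn2a the nearest were S100a7a (0.0751), Ptgs2 (0.0971) and Nmral1 (0.118), on chromosomes 3, 1 and 16. The cyclooxygenase gene Ptgs2 was at 34.5 TPM in shNT cells, 11.1 TPM with hairpin 1 and 41.5 TPM with hairpin 2. For Cdkn2b they were the plasminogen activator gene Plat (0.0809), Snn (0.0891) and Rnd1 (0.1), and Plat was at 176 TPM, 63.5 TPM and 159 TPM. For Cdkn2d they were Cklf (0.0529), Timm13 (0.0597) and Dnph1 (0.0837).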

How the data were processed

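RNA of 6 libraries was measured, and groups and replicate numbers came from the sample titles. The authors deposited a table of gene-level TPM, made with Salmon per the submitters' processing notes, which also name R 3.5, DESeq2 and mm10 without roles. TPM keeps no read number, so depth is unknown and no counting interval is given. The members and lists were chosen with earlier results of these data known.

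Genes with at least 1 TPM in at least 2 libraries were kept (11549 of 24493). Values were tested as log2(TPM + 1), a scale that understates changes of low genes, with limma 3.58.1 in R 4.3.3: 3 group means over all 6 libraries, a variance prior following mean expression, and Benjamini-Hochberg adjustment over all tested genes with a threshold of 0.05. The model was first tested on simulated data. Fold changes are ratios of mean TPM. "Both hairpins" averages the hairpin 1 and hairpin 2 group means and subtracts that of shNT. All members are reported. From each list up to 6 genes with the smallest p for both hairpins are named, with Ccne1, Mcm4 and Mcm6 named besides. The 3 members of widest range each get the 3 most similar genes. Genes within 1 Mb were described as further neighbours of the Cdkn2a locus. Positions came from GENCODE M21 (mm10), which placed 98.5% of tested genes, and promoter sequences from RefSeq (GRCm38.p6). Alternatives covered the pseudocount (0.1 and 0.5), the filter, scaling, chromosome centring, the variance prior, a replicate block, other groupings and leaving out each library.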

Additional observations from a re-analysis of the deposited data

Results flagged for a closer look

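Of the 9 tested members, 7 differed between hairpin 2 and hairpin 1 by the limma adjusted p, although both hairpins target Pthlh. The same comparison called 40.1% of all tested genes. On the log2(TPM + 1) scale, hairpin 2 minus hairpin 1 was 1.83 ± 0.09 (SE) for Cdkn2a (adjusted p = 0.000173), 1.40 ± 0.08 for Cdkn2b (0.000299) and 0.70 ± 0.05 for Ccnd1 (0.000643). It was -0.41 ± 0.05 for Cdkn1b (0.00194), -0.36 ± 0.05 for Ccnd2 (0.00409), -0.29 ± 0.05 for Cdkn2c (0.00776) and 0.16 ± 0.04 for Ccnd3 (0.0272). Every hairpin 2 library lay on the stated side of both hairpin 1 libraries for all 7 genes. The libraries of the hairpins did not overlap for 77.0% of all tested genes. The cause of the difference between hairpins was not tested, and the labels tie neither hairpin to a clone. The Ccnd3 difference did not pass on leaving out any 1 of the hairpin libraries (0.112 to 0.154), and the Cdkn2c difference did not pass without the second hairpin 1 library (0.0577) or the first hairpin 2 library (0.0601). Without small-RNA entries neither the Cdkn2c (0.0526) nor the Ccnd3 difference (0.108) passed, and Ccnd3 did not pass with a variance prior without trend (0.0530).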

How the results depend on the processing

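Of 612 values of members under the alternatives, 546 kept their direction and their side of the threshold, 50 no longer passed, 9 newly passed and 7 changed sign, none of them past the threshold. The sign changes were in the Cdkn1b difference of hairpin 2 from shNT (-0.0094 after median-ratio scaling, -0.0019 after quantile normalization, -0.0451 without small-RNA entries and -0.0255 after chromosome centring) and in the Cdkn1a difference between the hairpins (-0.0052 after median-ratio scaling, and -0.0659 to 0.0709 on leaving out 1 library, negative without the second library of hairpin 1 or of hairpin 2). The number of members called with hairpin 2 was 3 as reported, 1 without small-RNA entries (6 unadjusted; Cdkn2d, with all 3 reported calls lost), 0 with the compared groups alone (6 unadjusted) and 0 to 6 on leaving out 1 library: 6 without the second shNT library, and 0 without any 1 of the hairpin libraries. Pooling both hairpins as 1 group of 4 gave 0 members (5 unadjusted) and 1 gene of all, since the difference between hairpins then counts as spread. Over all genes, hairpin 2 against shNT called 1112 genes as reported, 585 without a filter, 729 after quantile normalization, 520 without small-RNA entries, 517 after chromosome centring and 130 with the compared groups alone. Both hairpins called 4550 as reported, 2918 without small-RNA entries and 3012 after chromosome centring. On leaving out 1 library, calls over all genes ranged from 6 to 2647 for hairpin 2, 3704 to 6161 for hairpin 1, 2742 to 4880 for both and 2380 to 5681 between hairpins. The cause was not tested.

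Libraries with the same replicate number did not deviate together (correlations of 0.021, 0.015 and -0.044 over genes), so the numbers were not taken as pairs. With a replicate block hairpin 2 called 276 genes of all, and the Ccnd2 rise with hairpin 2 no longer passed (0.0539). Depth is unknown, which limits what can be said of Cdkn1c.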
